A study of Mus musculus with 28 samples.

Results

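The genes described here encode core and regulatory proteins of pre-mRNA splicing. They were chosen by symbol alone, as every row of the count files whose name begins with Srsf and a digit, Sf3a or Sf3b and a digit, Hnrnp or Snrp. The pattern found 49 of the 23420 gene symbols that each file lists: 11 SR protein genes, 8 genes for SF3 subunits, 18 hnRNP genes and 12 snRNP protein genes. Hnrpdl and Hnrpll, which the files give under older symbols, and the Snrnp genes fall outside the pattern and were placed in a list of 114 other splicing genes.

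Splicing removes introns from newly made transcripts. The Sm and U-specific proteins (Snrp genes) package the small nuclear RNAs of the spliceosome, and the SF3a and SF3b complexes (Sf3 genes) belong to the U2 particle that recognises the branch point. SR proteins mostly bind exons and promote use of nearby splice sites, whereas hnRNP proteins coat nascent RNA and often oppose them. In T cells, exon choice in transcripts such as Ptprc (CD45) changes with activation, and Hnrpll is a known regulator of that choice.

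RNA was sequenced in 28 libraries from CD4 T cells, sorted out of the thymus or the spleen of males that were 6 to 8 weeks old. All mice carried a Foxp3-gfp reporter allele, in which green fluorescent protein marks cells that express Foxp3, the transcription factor that defines regulatory T (Treg) cells. In the WT groups the allele was otherwise intact, and in the KO groups (Foxp3ΔCNS3-gfp) it lacked CNS3, a conserved enhancer inside Foxp3. Each genotype gave 4 populations, with 3 WT and 4 KO libraries each: thymic Treg cells, thymocytes described as non-Treg and CD4+ single-positive (mCD4SP in the titles, CD4SP here), and a pair of splenic Treg populations titled rTreg and aTreg. The labels leave the letters m, r and a unexplained. The labels describe a pair of littermates and parallel sorting and library preparation, and do not state which libraries came from the same mouse. The p-values below therefore measure the spread between libraries, part of which may be technical.

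Counts in genes ranged from 22037995 to 40754492 per library, and the 49 genes took 0.949 to 1.18% of them. Another 42.3 to 49.7% of uniquely placed reads fell in no annotated gene (the no-gene share). Foxp3 averaged 652 ± 16.3 CPM (counts scaled to library size; SD, n = 3) in WT thymic Treg and 544 ± 73.6 (n = 4) in KO thymic Treg, against 3.36 ± 0.131 and 1.44 ± 0.363 in WT and KO CD4SP. Foxp3 was lower in KO than in WT CD4SP, where both levels were low (log2 fold change -1.25, SE 0.158, adjusted p = 8.25e-05, edgeR). Cd44, which is high on activated T cells, averaged 148 CPM in WT rTreg and 383 CPM in WT aTreg. Library 2 of KO CD4SP carried the highest sums of the B cell, dendritic cell, and CD8 and NK cell markers in its group. It was also highest there in myeloid, activated Treg, immature thymocyte and cell-cycle markers. Immature thymocyte markers summed to 1577 CPM in it, against 917, 928 and 901 CPM in the others. Cell-cycle markers summed to 3191 CPM, against 1935, 2124 and 2084 CPM. All levels are from bulk RNA, in which fewer cells of a type and less RNA per cell cannot be told apart.

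Sequences upstream of 6 SR protein genes are shown first, because these genes were called in the same direction in both genotypes between thymic Treg and splenic rTreg cells. How many of all genes were so called in both was not counted. Srsf2 (chr11:116853095-116853344, minus strand), Srsf3 (chr17:29032410-29032659, plus), Srsf5 (chr12:80945249-80945498, plus) and Srsf7 (chr17:80207306-80207555, minus) were higher in splenic rTreg. Srsf9 (chr5:115326927-115327176, plus) and Srsf12 (chr4:33209022-33209271, plus) were lower there. Each line gives the 250 bases before the RefSeq start (GRCm38.p6) on the gene's strand, with matches to the motifs described after them in capitals.
Srsf2: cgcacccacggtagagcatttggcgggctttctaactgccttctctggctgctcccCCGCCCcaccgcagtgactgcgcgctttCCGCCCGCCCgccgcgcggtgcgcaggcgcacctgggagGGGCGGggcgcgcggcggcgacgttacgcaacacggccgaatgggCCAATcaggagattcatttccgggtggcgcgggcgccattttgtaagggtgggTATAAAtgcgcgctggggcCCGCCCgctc
Srsf3: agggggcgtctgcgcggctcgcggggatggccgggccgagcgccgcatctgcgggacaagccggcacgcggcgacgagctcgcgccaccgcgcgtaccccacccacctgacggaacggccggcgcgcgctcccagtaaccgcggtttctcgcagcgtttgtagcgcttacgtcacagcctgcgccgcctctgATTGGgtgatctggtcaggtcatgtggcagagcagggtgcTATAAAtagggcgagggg
Srsf5: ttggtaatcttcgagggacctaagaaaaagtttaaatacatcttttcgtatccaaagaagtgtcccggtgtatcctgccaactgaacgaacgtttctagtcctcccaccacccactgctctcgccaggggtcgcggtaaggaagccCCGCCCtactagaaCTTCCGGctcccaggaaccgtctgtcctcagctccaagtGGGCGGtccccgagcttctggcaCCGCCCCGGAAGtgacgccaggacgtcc
Srsf7: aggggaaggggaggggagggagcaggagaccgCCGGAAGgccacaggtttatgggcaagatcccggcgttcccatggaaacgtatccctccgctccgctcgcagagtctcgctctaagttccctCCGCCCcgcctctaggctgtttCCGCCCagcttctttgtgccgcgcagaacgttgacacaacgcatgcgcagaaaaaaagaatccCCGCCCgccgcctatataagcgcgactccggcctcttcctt
Srsf9: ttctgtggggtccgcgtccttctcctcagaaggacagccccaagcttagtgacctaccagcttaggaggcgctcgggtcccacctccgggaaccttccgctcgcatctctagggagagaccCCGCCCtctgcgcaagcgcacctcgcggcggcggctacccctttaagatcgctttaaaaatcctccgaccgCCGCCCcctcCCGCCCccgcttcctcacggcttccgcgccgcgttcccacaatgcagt
Srsf12: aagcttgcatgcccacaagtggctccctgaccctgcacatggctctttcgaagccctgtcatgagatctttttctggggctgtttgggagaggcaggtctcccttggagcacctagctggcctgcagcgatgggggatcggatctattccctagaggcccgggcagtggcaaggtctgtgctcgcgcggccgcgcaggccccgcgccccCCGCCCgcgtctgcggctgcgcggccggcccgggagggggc
The motifs were searched on both strands, and matches may overlap, as the ETS core and a GC box do in Srsf5 and a pair of GC boxes does in Srsf2. The GC box GGGCGG matched in every window but that of Srsf3, and in 32.7% of all 32851 windows of this length in the table. TATAAA matched in Srsf2 and Srsf3 (12.4% of all windows), CCAAT in the same pair (33.8%), and the ETS core CCGGAAG in Srsf5 and Srsf7 (6.91%). CACGTG, TGACGTCA and the NRF1 site matched none of the 6 windows and 6.02%, 1.55% and 0.782% of all windows. RefSeq windows were matched for 44 of the 49 genes. These matches describe letters only.

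Hnrnpa2b1, an RNA-binding protein of the hnRNP A/B family, had the highest mean level per kilobase of exon over the 28 libraries at 239.5 CPM per kb, followed by Srsf7 at 196 and Srsf2 at 173 CPM per kb. Snrpb, the Sm B protein, led the snRNP genes at 135 CPM per kb, and Sf3b1, the subunit that clasps the branch-point helix, led the SF3 genes at 96.1 CPM per kb. Class medians were close, at 25.5 (SR), 26.7 (SF3), 27.98 (hnRNP) and 29.7 CPM per kb (snRNP).

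**Figure D1:**
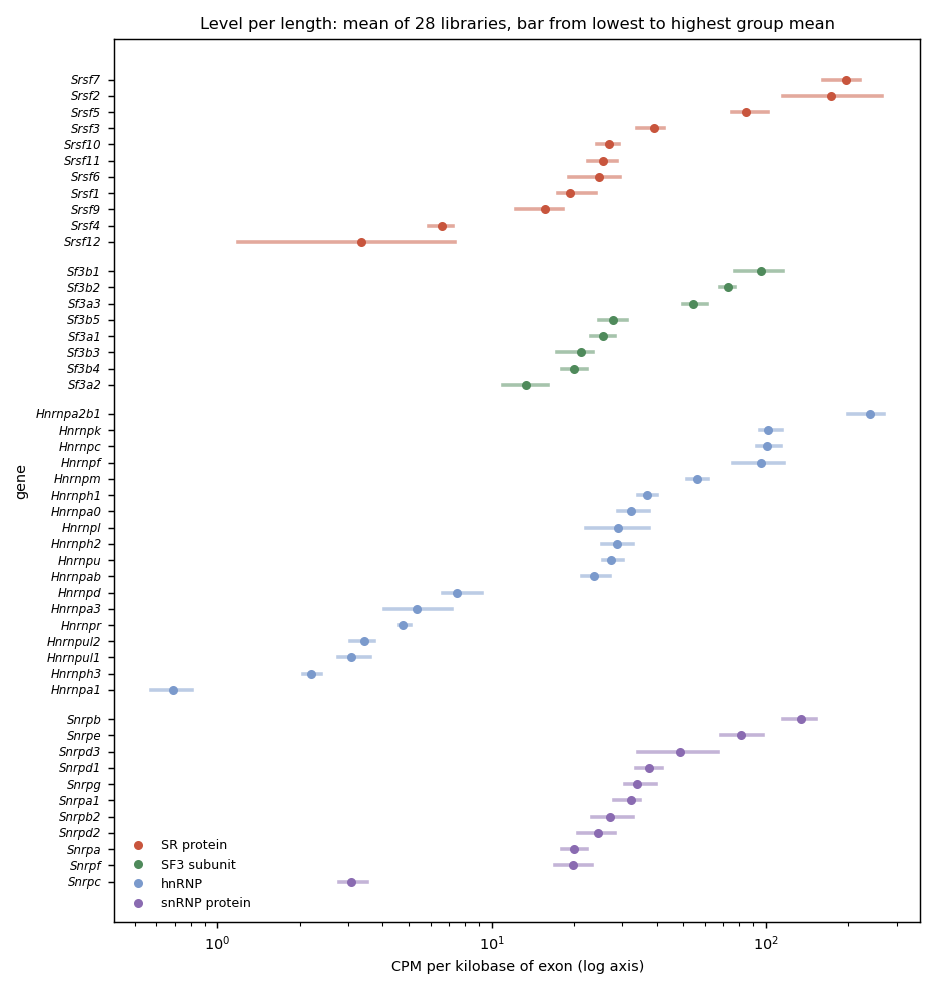
Mean CPM per kilobase of exon over 28 libraries (point) for the 48 genes tested, by class, with a bar from the lowest to the highest of the 8 group means; the axis is logarithmic. Srsf12 has the widest bar, with group means 6.19-fold apart, and Hnrnpa2b1 lies furthest right at 239.5 CPM per kb.

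For most genes the groups lay close together. The highest group mean was below 1.5 times the lowest for 41 of the 48 genes tested, from 1.11 times for Hnrnpr to 1.49 times for Sf3b1. The exceptions were Srsf6, Hnrnpf, Hnrnpl, Hnrnpa3, Snrpd3 (1.96 times), Srsf2 (2.31 times) and Srsf12 (6.19 times). Snrpn, an imprinted gene for an SmB-related protein known from brain, had 0 counts in all 28 libraries and was not tested. Snurf, with which it shares 216 exon bases, was also at 0.

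Levels of SR protein genes set splenic rTreg apart from thymic Treg. Srsf2 (SC35), a component of nuclear speckles, measured 438, 444 and 401 CPM in the WT thymic Treg libraries and 794, 735 and 834 CPM in WT rTreg. In KO it measured 352, 344, 370.1 and 305 CPM in thymic Treg and 682, 683, 751 and 751 CPM in rTreg. No rTreg library overlapped a thymic Treg library in either genotype. The gene was picked by the test on these same libraries, and the share of all genes without overlap is not given here. Srsf2 rose by 0.88 on the log2 scale in WT (SE 0.078, adjusted p = 1.23e-09, edgeR) and by 1.06 in KO (SE 0.0679, adjusted p = 1.4e-12). With the no-gene share added to the fit as a covariate the adjusted p was 2.94e-09 and 1.19e-05. Srsf2 shares 460 exon bases with Mettl23 and 288 with Mfsd11 on the opposite strand, and no source used here states whether reads were counted by strand.

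Srsf3, Srsf5 and Srsf7 rose with it. Srsf7 measured 546, 613 and 619.7 CPM in WT thymic Treg and 715, 769 and 822 CPM in WT rTreg (log2 fold change 0.37, SE 0.0869, adjusted p = 0.0016). Srsf5 went from 353, 316 and 308 CPM to 422, 423 and 365 CPM (0.31, adjusted p = 0.00163), and Srsf3 from 255, 279 and 276 to 308, 344 and 344 CPM (0.30, adjusted p = 0.00391). Each rTreg library was above each thymic Treg library for these 3 genes, which were also picked by the test on the same libraries. In KO the changes were 0.38 for Srsf7, 0.42 for Srsf5 and 0.33 for Srsf3, with adjusted p = 0.000185, 5.42e-06 and 0.000243. With the no-gene share as a covariate Srsf5 in KO was not called (adjusted p = 0.0746).

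Srsf9 and Srsf12 fell. Srsf12, an atypical SR protein that can counter the others, measured 13.7, 10.55 and 12.2 CPM in WT thymic Treg and 7.48, 7.32 and 6.92 CPM in WT rTreg (log2 fold change -0.75, SE 0.183, adjusted p = 0.00255). In KO it measured 9.77, 7.83, 7.54 and 9.82 CPM against 5.43, 3.98, 6.22 and 3.02 CPM (-0.91, adjusted p = 7.58e-05). Srsf9 fell by 0.34 in WT (adjusted p = 0.0222) and by 0.57 in KO (adjusted p = 4.51e-05, and 0.184 with the no-gene share as a covariate). The Srsf9 call in WT was lost without WT thymic Treg library 2 or 3 or WT rTreg library 3 (adjusted p = 0.0924, 0.0553 and 0.128).

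**Figure D2:**
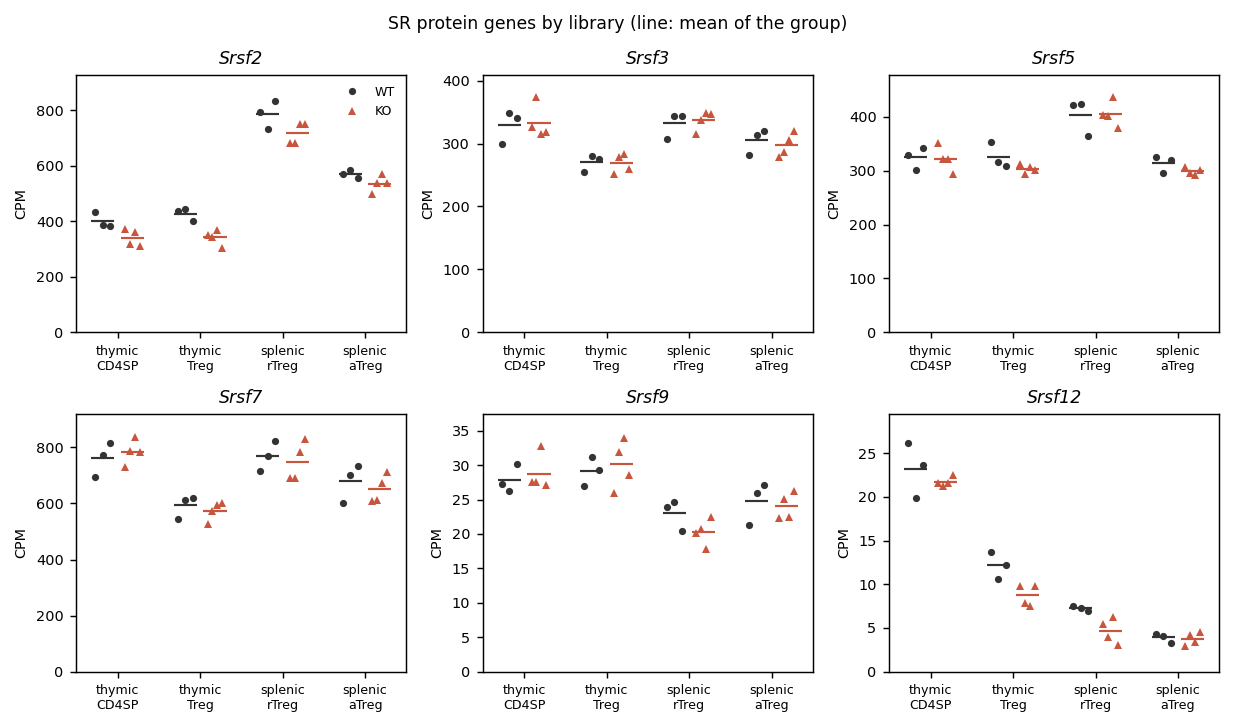
CPM of 6 SR protein genes in every library, by population, for WT (circles) and KO (triangles), with the group mean as a line. Srsf2 in splenic rTreg (682 to 834 CPM) lies above all thymic libraries (305 to 444 CPM), and Srsf12 is highest in CD4SP.

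In this comparison 6 genes were called higher and 2 lower of 48 in WT, with a median log2 fold change of 0.03, beside 30.6% of all 13338 genes called (13.9% higher and 16.7% lower) and a median of -0.01. Of the 8 calls 7 were SR protein genes, out of 11 such genes tested. The others were Srsf6, which rose by 0.37 (adjusted p = 0.0135, and 0.0908 without WT thymic Treg library 1 or 0.0503 without WT rTreg library 3), and Sf3a2, a subunit of SF3a, which rose by 0.42 (adjusted p = 0.0188, and 0.155 and 0.116 without the same libraries). Without WT rTreg library 3 the count was 5. In KO 8 genes were called higher and 11 lower, beside 42.9% of all genes (19.6% higher and 23.3% lower). Libraries of rTreg and thymic Treg also differed in the summed handling-stress markers (2178 to 2353 CPM in WT rTreg against 1012 to 1174 CPM in WT thymic Treg). Of these 17 markers 8 were called higher and 4 lower in WT rTreg. In WT rTreg 13 of 18 myeloid markers (588 to 614 CPM summed, against 871 to 1055 CPM) and 18 of 30 cell-cycle markers were called lower, and 8 of 14 B cell markers higher. The part of these markers in the SR protein result was not tested.

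Among the snRNP genes, 6 of 11 tested were called lower in KO rTreg than in KO thymic Treg, and 0 in the WT comparison. Snrpd2, an Sm core protein, measured 65.7, 81.8, 79.6 and 69.1 CPM in KO thymic Treg and 51.0, 58.8, 52.9 and 53.2 CPM in KO rTreg (log2 fold change -0.46, SE 0.1, adjusted p = 0.000603). Snrpb, Snrpe, Snrpc, Snrpb2 and Snrpd1 were the others. None of the 6 was called with the no-gene share as a covariate, where the count was 4 higher and 1 lower, and Snrpd2 changed by -0.19 (adjusted p = 0.567). That share was 42.3 to 45.0% in KO thymic Treg and 48.6 to 49.7% in KO rTreg. The fit took its slope for the share from the spread within groups. Without overlap between the groups that slope is extrapolated, so the fit cannot reliably tell the share from the population. Whether the genotypes differ in this step was not tested. The KO thymic Treg libraries also enter the comparison of KO with WT thymic Treg below, so the snRNP results of these comparisons are not independent. The snRNP sum averaged 911 and 1094 CPM in WT and KO thymic Treg, and 930 and 941 CPM in WT and KO rTreg. The other called genes were Srsf11, Hnrnph1, Sf3b1 and Hnrnpf, higher, and Sf3b5, Hnrnpl and Hnrnpul2, lower.

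The other splicing genes moved in both directions. Of 113 tested, 24 were called higher and 5 lower in WT, and 31 higher and 11 lower in KO. The shares called, 25.7% and 37.2%, were below the 30.6% and 42.9% of all genes. Mbnl1, a muscleblind splicing regulator, rose by 0.49 (adjusted p = 3.69e-05), with Hnrpdl, Snrnp48 and Tra2b. Luc7l3, a U1-associated protein, fell by 0.69 (adjusted p = 1.1e-07), with Tia1, Gemin5 and Tardbp. Clk1 and Clk4, kinases that phosphorylate SR proteins, rose by 0.45 and 0.44 in KO (adjusted p = 9.59e-07 and 4.62e-06).

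Many of these genes were lower in thymic Treg than in CD4SP cells. In WT 20 were called lower and 1 higher of 48, beside 48.3% of all genes called (26.8% higher and 21.6% lower), with a median log2 fold change of -0.20 over the 48 and 0.03 over all genes. In KO 21 were lower and 4 higher, beside 56.5% of all genes (30.0% higher and 26.5% lower), with a median of -0.14. The share called, in either direction, was close to that of all genes. The same 15 genes were lower in both genotypes: Hnrnpa3, Hnrnpc, Hnrnpd, Hnrnpf, Hnrnpk, Hnrnpm, Sf3a3, Sf3b1, Snrpd3, Srsf1, Srsf3, Srsf6, Srsf7, Srsf11 and Srsf12. The share of all genes called lower in both genotypes was not counted, so this overlap cannot be set apart from that of other genes.

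Snrpd3, the Sm D3 protein, measured 138, 142 and 145 CPM in WT thymic Treg and 201, 230.1 and 263 CPM in WT CD4SP (log2 fold change -0.70, SE 0.105, adjusted p = 2.4e-06). Hnrnpd (AUF1), which also binds AU-rich elements of mRNA, measured 49.8, 48.8 and 48.0 against 69.7, 62.0 and 67.4 CPM (-0.44, SE 0.0724, adjusted p = 1.07e-05). Srsf12 measured 26.1, 19.8 and 23.7 CPM in WT CD4SP (-0.93, SE 0.178, adjusted p = 8.31e-05). The libraries of the groups did not overlap for these genes in WT, where the test on the same libraries had picked them. Hnrnpd, Sf3b1, Snrpd3, Srsf7, Srsf11, Srsf12 and Hnrnpa3 were the genes still called lower in WT with the no-gene share as a covariate, and 20 were in KO. The share was 46.3 to 49.3% in WT thymic Treg and 42.5 to 45.4% in WT CD4SP. In WT the slope within groups is therefore extrapolated, and the fit cannot reliably tell the share from the population. With the replicate number as a block, which pairs the WT libraries in this comparison, Srsf10 was also called lower in WT (-0.20, adjusted p = 0.00814) and Sf3a1 and Sf3b2 higher (0.17 and 0.15, adjusted p = 0.0411 and 0.0469).

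Hnrnph2, the H-family protein encoded on the X chromosome, was higher in thymic Treg in both genotypes. It measured 128, 133 and 141 CPM against 99.5, 114 and 129 CPM in WT, where the groups overlapped (log2 fold change 0.23, adjusted p = 0.0276), and changed by 0.33 in KO (adjusted p = 0.000417). The WT call was lost without WT thymic Treg library 3 or without WT CD4SP library 1 or 2 (adjusted p = 0.113, 0.205 and 0.055). In KO, Sf3b5, Sf3b2 and Sf3a1 were also called higher (0.24, 0.15 and 0.19), and each lost its call without at least 1 library and with the no-gene share as a covariate (adjusted p = 0.0877, 0.055 and 0.13). Summed cell-cycle markers were lower in WT thymic Treg (1268 to 1562 CPM) than in WT CD4SP (1918 to 2263 CPM). Markers of some other cell types were higher in WT thymic Treg, with 15 of 18 myeloid (871 to 1055 against 509 to 561 CPM summed), 8 of 11 dendritic cell and 10 of 14 B cell markers called. Other lists were mixed. Higher and lower calls were 3 and 2 of 10 CD8 and NK cell markers and 2 and 1 of 11 immature thymocyte markers. They were 2 and 1 of 7 stromal and epithelial markers, and 0 and 0 of 4 erythroid markers. The part of all these markers in these results was not tested.

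Among the other splicing genes, 41 were lower and 8 higher of 113 in WT, and 46 and 11 in KO. These shares of 43.4% and 50.4% lay below the 48.3% and 56.5% of all genes. Srpk1 and Srpk2, the kinases that load SR proteins with phosphate in the cytoplasm, fell by 0.99 and 0.64 in WT (adjusted p = 6.01e-11 and 9.17e-09) and by 0.99 and 0.65 in KO (adjusted p = 1.99e-12 and 2.65e-10). Zranb2 and Cdc40 were also lower in both genotypes, and Celf2 and Hnrpll were higher in both.

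In spleen, most of the genes called were lower in aTreg than in rTreg. In WT 9 genes were called lower and 1 higher of 48, beside 37.9% of all genes (18.1% lower and 19.9% higher), and in KO 14 were lower and 3 higher, beside 41.6% (19.9% lower and 21.7% higher). The shares called in either direction were 20.8% and 35.4%, and the lower calls in WT lay near the share of all genes. With library sizes from all uniquely placed reads the calls were 4 higher and 7 lower in WT. In KO they were then 16 higher and 7 lower, so the majority reversed. With the replicate number as a block, which pairs the KO libraries here, Sf3a1 (-0.14, adjusted p = 0.0491) and Snrpb (0.15, adjusted p = 0.0452) were called as well in KO. The same 8 genes were lower in both genotypes: Hnrnpa3, Hnrnpf, Hnrnph1, Sf3b1, Snrpd3, Srsf2, Srsf5 and Srsf6. The share of all genes lower in both was not counted here either. This comparison shares the rTreg libraries with that between rTreg and thymic Treg.

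Srsf2 measured 570, 585 and 558 CPM in WT aTreg (against 794, 735 and 834 CPM in rTreg; log2 fold change -0.46, SE 0.0776, adjusted p = 2.29e-05). In KO it measured 498, 540.0, 571 and 537 CPM (-0.42, SE 0.0672, adjusted p = 1.22e-05). Its aTreg libraries therefore lay between those of thymic Treg and rTreg. Srsf6 measured 97.9, 103 and 75.3 CPM in WT aTreg against 138, 130.4 and 145 CPM in WT rTreg (-0.58, adjusted p = 0.000154). Sf3b1 measured 856, 915 and 872 against 1119, 1139 and 1202 CPM (-0.39, SE 0.0769, adjusted p = 0.000192). The groups did not overlap for Sf3b1, a gene picked by the test on the same libraries.

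Sf3b5, a small SF3b subunit, moved the other way. It measured 100.99, 114 and 137 CPM in WT aTreg against 93.0, 100.4 and 91.1 CPM in WT rTreg (log2 fold change 0.31, SE 0.091, adjusted p = 0.00834), and changed by 0.30 in KO (adjusted p = 0.00278). The WT call was lost without WT aTreg library 3 (0.18, adjusted p = 0.112), and the KO call with the no-gene share as a covariate (adjusted p = 0.266). Snrpd3 fell by 0.33 in WT (adjusted p = 0.0127), a call lost without WT rTreg library 2 or WT aTreg library 1 (adjusted p = 0.109 and 0.103), and by 0.49 in KO (adjusted p = 8.81e-05). Hnrnpa2b1, the gene with the highest level per length, was called in 1 of the 10 comparisons within populations or genotypes, where it fell by 0.24 in KO aTreg (adjusted p = 0.00814).

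Of the other splicing genes, 27 were lower and 5 higher of 113 in WT, and 31 and 6 in KO, shares of 28.3% and 32.7% beside 37.9% and 41.6% of all genes. Hnrpll was the clearest riser, by 0.84 in WT (SE 0.0901, adjusted p = 1.93e-08) and 0.89 in KO (adjusted p = 4.02e-10), with Snrnp25 and Tial1. Srpk1 fell by 0.54 in WT and 0.53 in KO (adjusted p = 6.39e-06 and 1e-06), and Ddx46, Tia1 and Celf1 fell in WT. Activated Treg markers separated these groups (6224 to 6951 CPM summed in WT aTreg, 1120 to 1367 CPM in WT rTreg), as did cell-cycle markers (1768 to 2303 against 950.1 to 1220 CPM). Their part in the splicing genes was not tested.

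**Figure D3:**
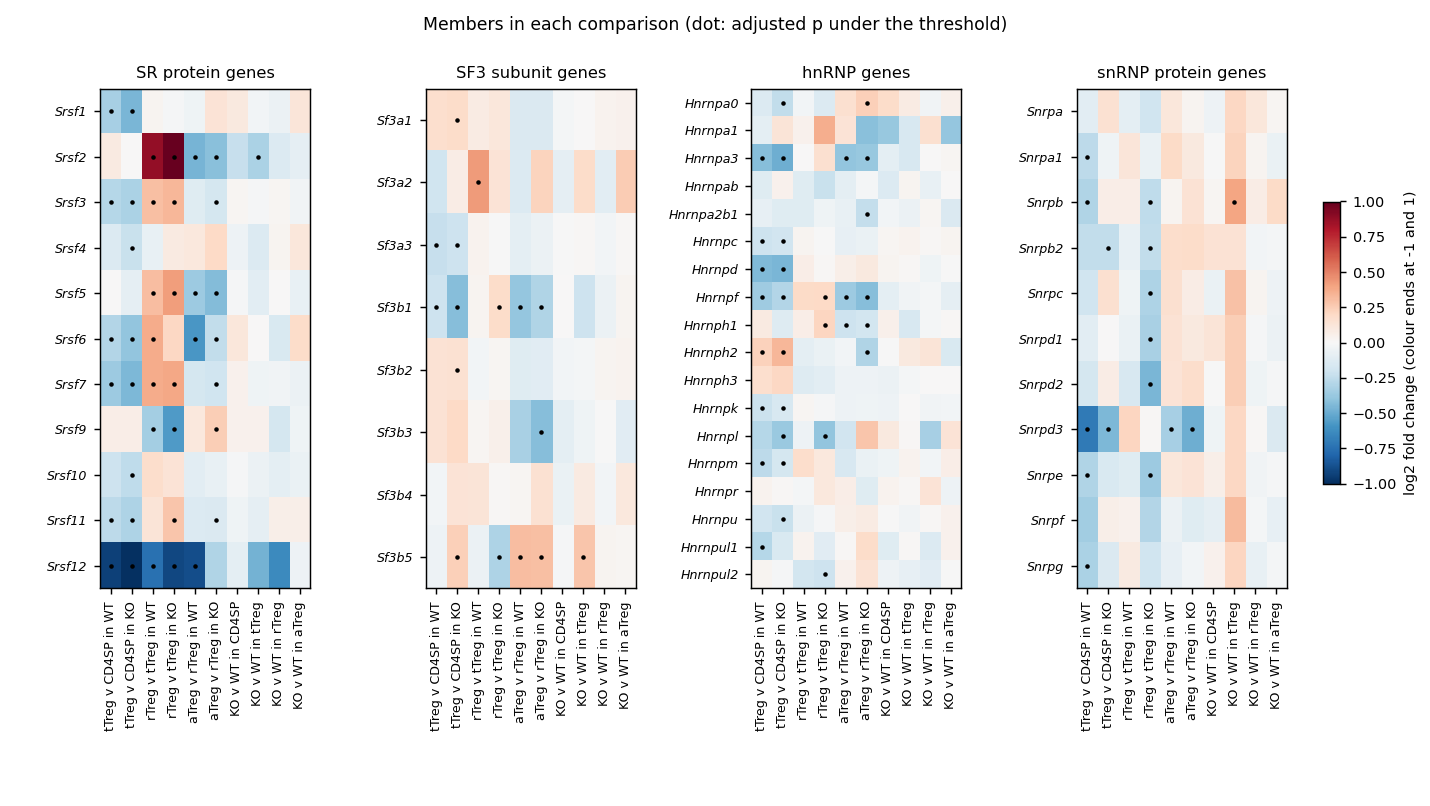
Log2 fold changes of the 48 genes tested, by class, in 10 comparisons, where tTreg stands for thymic Treg; red is higher and blue lower in the first-named group, the colour ends at -1 and 1, and a dot marks an adjusted p under 0.05. Srsf2 is red in rTreg against thymic Treg and blue in aTreg against rTreg, and the snRNP protein column of KO against WT in thymic Treg is red throughout.

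The counts in each direction depend on the scale, which moves all genes alike. With library sizes taken from all uniquely placed reads and no TMM factor, the median of all genes moved from -0.02 to -0.23 in KO rTreg against thymic Treg, from -0.01 to -0.11 in the same WT comparison and from 0.01 to 0.13 in KO aTreg against rTreg. The members' calls then became 2 higher and 26 lower, 3 and 3, and 16 and 7. In WT aTreg against rTreg they became 4 and 7, and in thymic Treg against CD4SP 0 and 22 (WT) and 5 and 12 (KO). The majority reversed in KO aTreg against rTreg, where the members' median lay below that of all genes on both scales (-0.06 against 0.01, and 0.07 against 0.13). Srsf2 kept its direction and its call in rTreg against thymic Treg on both scales. On the all-read scale Srsf3, Srsf6 and Sf3a2 in WT (adjusted p = 0.0926, 0.0859 and 0.0932) and Srsf3, Srsf7, Srsf11 and Hnrnph1 in KO (0.2, 0.0639, 0.256 and 0.996) were not called.

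Few genes were called between the genotypes, and in thymic Treg the members' share of 6.25% lay near that of all genes. In KO against WT thymic Treg 2 genes were called higher and 1 lower of 48, beside 9.34% of all genes (4.21% higher and 5.13% lower). Snrpb measured 205, 232 and 249.9 CPM in WT and 295, 312, 332 and 264 CPM in KO (log2 fold change 0.39, SE 0.0728, adjusted p = 0.00135). Sf3b5 measured 98.6, 97.7 and 99.1 CPM in WT and 109.8, 132, 135 and 101.4 CPM in KO (0.28, SE 0.0853, adjusted p = 0.0391). Srsf2 measured 438, 444 and 401 CPM in WT and 352, 344, 370.1 and 305 CPM in KO (-0.32, SE 0.0723, adjusted p = 0.00631). The genotypes did not overlap for any of the 3 genes, which were picked by the test on these same libraries, so this adds no support. Every KO library was above every WT library for 11.7% of all genes, and the share wholly below is not given here. The Sf3b5 call was lost without any 1 of the WT libraries or KO library 2 or 3 (adjusted p 0.0871 to 0.139).

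The snRNP genes lay on one side as a class. All 11 tested had a positive log2 fold change in KO thymic Treg, from 0.15 to 0.39 with a median of 0.22, where the median of all genes was 0.02. Their summed level was 870 to 949 CPM in the WT libraries and 971 to 1237 CPM in the KO libraries. For 5 of the 11, every KO library was above every WT library, as for 11.7% of all genes, and Snrpb alone was called. The medians of the other classes were -0.06 (SR), 0.01 (SF3) and 0.01 (hnRNP). On the all-read scale, where the median of all genes was 0.10, the SR median was 0.03 and the snRNP median 0.31, and the members called became 5 higher and 1 lower.

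The share of reads in no gene also separated these libraries. It was 49.3, 46.3 and 47.0% in WT thymic Treg and 42.6, 42.3, 42.6 and 45.0% in KO thymic Treg, with every KO library below every WT library (-4.43 points, two-sided exact permutation test over 35 arrangements p = 0.0571, where the smallest possible is 0.0286, and 0.229 adjusted over 4 populations). With that share as a covariate none of the 3 genes was called (Snrpb 0.21, adjusted p = 0.513; Srsf2 -0.26, 0.449; Sf3b5 0.05, 0.961), and the snRNP median was 0.04, with 7 genes positive and 4 negative. Because the share did not overlap between the genotypes, the slope within groups is extrapolated. This fit cannot reliably tell the part of the share from that of the genotype. Summed myeloid markers were 871 to 1055 CPM in WT and 1157 to 1904 CPM in KO, with 0 of 18 markers absent, and cell-cycle markers 1268 to 1562 and 1732 to 2027 CPM. Activated Treg markers, of which 14 of 20 were called higher in KO, summed to 1557 to 1900 CPM in WT and 2349 to 2601 CPM in KO. The sums of CD8 and NK cell markers (323 to 376 and 472 to 555 CPM) and of B cell markers (48.4 to 50.5 and 70.7 to 75.0 CPM) also did not overlap. Single markers of these lists were seldom called. Of 10 CD8 and NK cell markers 1 was higher and 1 lower in KO, and of 14 B cell markers 0 were higher and 1 lower. The part of the activated Treg, cell-cycle, CD8 and NK, and B cell markers was not tested. With the myeloid sum as a covariate none of the 3 was called, at 0.37 (adjusted p = 0.0959), -0.32 (0.153) and 0.15 (0.615). Snrpb and Srsf2 stayed close to their sizes without it. Since the myeloid sum did not overlap between the genotypes, its slope within groups is extrapolated too. This fit cannot reliably tell the part of the myeloid sum from that of the genotype. Without KO thymic Treg libraries 1 and 2, Snrpb and Srsf2 were called (adjusted p = 0.0165 and 0.0317) and Sf3b5 was not (0.136).

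**Figure D4:**
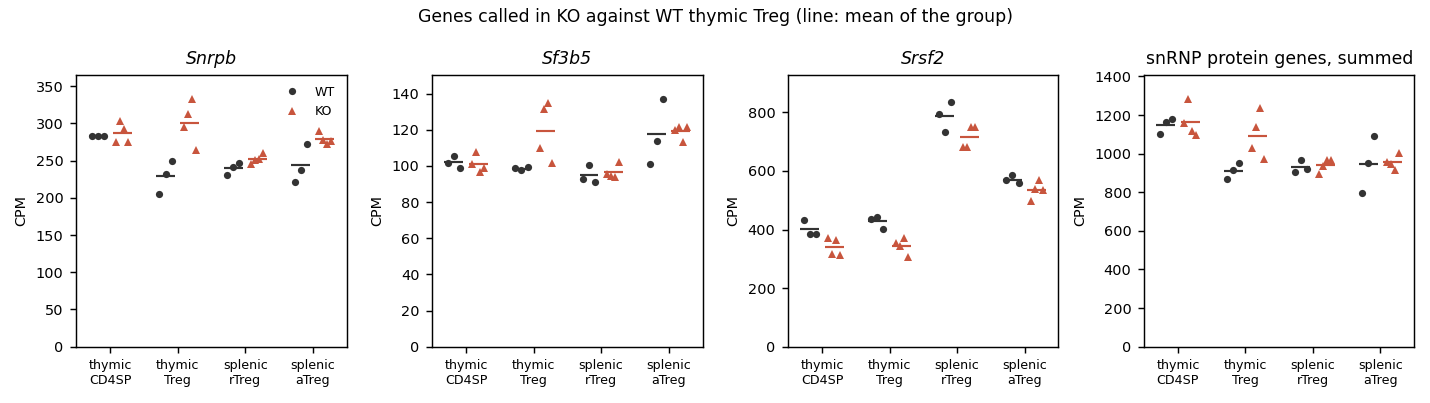
CPM in every library for the 3 genes called in KO against WT thymic Treg, and the summed CPM of the snRNP protein genes, by population, for WT (circles) and KO (triangles), with the group mean as a line. In thymic Treg the KO libraries of Snrpb (264 to 332 CPM) lie above the WT libraries (205 to 249.9 CPM).

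No member was called between genotypes in CD4SP, rTreg or aTreg (edgeR, adjusted p under 0.05), where 0.195%, 0.135% and 0.03% of all genes were. At an unadjusted p under 0.05, which a share of about 0.05 of unchanged genes would pass, there were 2, 2 and 1 members. The share of all genes under it was not counted. Srsf2, Srsf12 and Snrpb below were named for their small p. Srsf2 measured 432, 386 and 385 CPM in WT CD4SP and 371, 318, 363 and 313 CPM in KO CD4SP, without overlap (-0.23, SE 0.0724, adjusted p = 0.39), and -0.14 and -0.09 in rTreg and aTreg. The KO effects on Srsf2 in thymic Treg and CD4SP differed by -0.09 (SE 0.103, adjusted p = 0.757). Srsf12 in rTreg measured 7.48, 7.32 and 6.92 CPM in WT and 5.43, 3.98, 6.22 and 3.02 CPM in KO (-0.63, SE 0.178, adjusted p = 0.307), and Snrpb changed by 0.20 in aTreg (adjusted p = 0.572).

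The difference of KO effects between thymic Treg and CD4SP was called for 0 of 48 members, beside 0.615% of all genes. Snrpb had the smallest p, with a difference of 0.37 (SE 0.102, adjusted p = 0.0868), followed by Snrpc and Hnrnph1 (0.36 and -0.22, adjusted p = 0.239 and 0.244). At an unadjusted p under 0.05 there were 6 members, and the share of all genes under it was not counted. Snrpb was called by DESeq2 (adjusted p = 0.0259) and without KO thymic Treg library 4 (0.0249), and Hnrnph1 without WT CD4SP library 3 (0.0434).

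Of the other splicing genes 2 were higher and 7 lower of 113 in KO thymic Treg, a share of 7.96% close to the 9.34% of all genes. Prpf31, a tri-snRNP protein, and Lsm6, of the Lsm ring around U6, rose by 0.22 and 0.27 (adjusted p = 0.016 and 0.0221). Luc7l2 fell by 0.42 (adjusted p = 0.00154) and Clk1 by 0.34 (adjusted p = 0.0017), with Tia1 and Celf1. For Luc7l2 the KO effect in thymic Treg differed from that in CD4SP by -0.47 (SE 0.112, adjusted p = 0.0409), the only call of 113. None of these genes was called in the other populations.

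Across libraries, class sums were set beside the share of reads in no gene after both were expressed as deviations from the group means, since the 8 groups form clusters. Over 28 libraries Pearson's r was -0.49 for the snRNP genes (permutation p = 0.015, adjusted 0.0751 over 5 relations; Spearman's rho -0.45, p = 0.0407, adjusted 0.204), and -0.41 without the 2 libraries with the most distant shares. For the hnRNP, SR and SF3 genes r was -0.39, -0.14 and -0.02 (permutation p = 0.0963, 0.528 and 0.903; Spearman's rho -0.38, -0.13 and -0.09, p = 0.101, 0.564 and 0.645). No relation passed an adjusted p of 0.05. Among the WT groups the SR sum was highest in rTreg (3006 ± 117 CPM, SD, n = 3) and lowest in thymic Treg (2269 ± 57.5 CPM), whose shares were 48.1 ± 1.86% and 47.5 ± 1.55%.

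**Figure D5:**
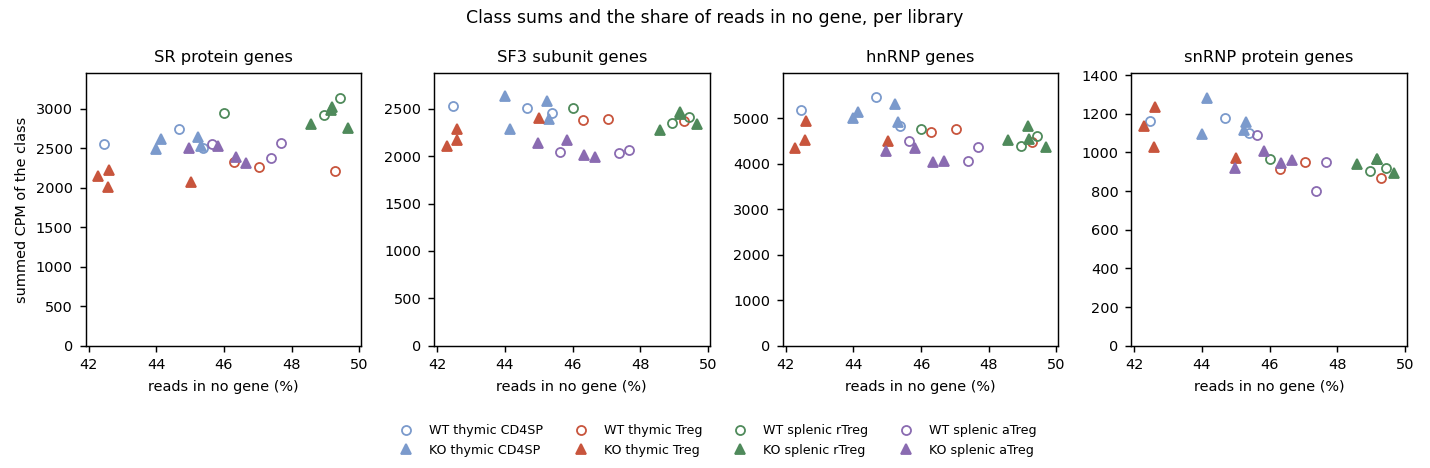
Summed CPM of each class against the percent of uniquely placed reads in no gene, 1 point per library, coloured by population, for WT (open circles) and KO (filled triangles). KO thymic Treg libraries lie at 42.3 to 45.0% with snRNP sums of 971 to 1237 CPM, and the rTreg libraries have the highest SR sums (2756 to 3141 CPM).

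Some levels are uncertain because parts of the transcripts are not unique. Of the words of 50 bases in the transcripts of Hnrnpa1, 28.2% also occur in 20 other genes, all pseudogenes, and its level was 2.18 CPM on average. The share was 89.5% for Snrpf, 61.9% for Hnrnpf and 27.1% for Hnrnpa3. For Srsf2 it was 20.7%, shared with 2 genes. Reads placed several times were kept out of the gene counts, so levels per length of these genes are not comparable with the rest. Snrpd3 shares 232 exon bases with Gucd1 on the opposite strand.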

How the data were processed

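Each deposited file gives the authors' unnormalised read count for every gene symbol, plus summary lines for the reads left uncounted. RNA came from TRIzol extraction and SMART amplification and was sequenced as read pairs, per the labels' protocols. Trimmomatic, STAR, HTSeq and mm10 are named, per the submitters' processing notes. No source used here gives their versions or settings, the annotation or the strand. Counts in genes per library are given above, and intervals or floors would cover counting error only.

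CPM used TMM library sizes. The main test was edgeR's (4.0.16) quasi-likelihood F test on all 28 libraries with a mean per group, filterByExpr (13338 genes kept) and Benjamini-Hochberg adjustment over those genes at 0.05. Alternatives were DESeq2 1.42.0 and limma 3.58.1 voom, other scalings, no filter, the compared libraries alone, covariates, a replicate block and leaving out each library. The fit was tested on simulated data. Replicate numbers were taken to pair groups where every same-numbered pair of libraries deviated together from the group means (r over 0.1). This held for WT thymic Treg with CD4SP (0.107 to 0.133, 3 pairs) and KO rTreg with aTreg (0.121 to 0.232, 4 pairs), as a pattern in the data, and for none of the other comparisons between a pair of groups. The uncounted reads stayed out of library sizes and tests: beside the no-gene share, 0.608 to 0.763% of uniquely placed reads were ambiguous, and 22.8 to 30.4% of all counted alignments were placed several times. Exon lengths and positions came from GENCODE M21 (GRCm38, the mm10 assembly), to which all 49 symbols matched, and promoters from RefSeq. The members and gene lists were chosen with earlier results of these data known. Named genes were Foxp3, each gene past the test (at most 6 per direction where over 12 passed), the 3 with the smallest p where fewer than 3 passed, the highest per length in each class, up to 4 other splicing genes per direction, and genes under the filter. Genes listed in addition to complete a count were named after their values were seen. Libraries of a group differed beyond counting error (chi-square per degree of freedom 7.08 to 37.6), so none merely repeated the reads of another, and all were kept. This check cannot tell libraries of separate mice from separate preparations of the same mouse.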

Additional observations from a re-analysis of the deposited data

Results flagged for a closer look

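Of 132 groups of 4 libraries checked, 9 had 1 library standing apart from the other 3 by Dixon's test; chance alone sets about 1 in 20 apart. In KO thymic Treg these were Hnrnpa0 in its highest library (101.3 CPM), Sf3a1 in its lowest library (140.9 CPM) and the share of reads in no gene in its highest library (45.0%). In KO CD4SP they were Hnrnpa3 in its lowest library (33.2 CPM) and Srsf9 in its highest library (32.8 CPM). In KO rTreg they were Sf3b2, Sf3b5 and Srsf11, each in its highest library (535.6, 101.9 and 239.8 CPM). In KO aTreg it was Sf3a2 in its lowest library (34.5 CPM).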

How the results depend on the processing

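The 3 calls in KO against WT thymic Treg became 6 with all-read library sizes, with DESeq2 and with the replicate block, 5 with limma voom, and 0 with the no-gene share or the myeloid sum as a covariate. With the no-gene share as a covariate thymic Treg against CD4SP in WT gave 9 calls (21 without it) and rTreg against thymic Treg in KO gave 5 (19 without it). In these comparisons, in KO against WT thymic Treg and in KO aTreg against rTreg, the share did not overlap between the groups. There the fit extrapolates a slope taken from within groups and cannot reliably tell the share from the groups. The same holds for the myeloid sum in KO against WT thymic Treg. The difference of KO effects gave 1 call with all-read library sizes, DESeq2 and the replicate block, and 0 without. The cause of these changes was not tested.

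Leaving out each library in turn gave 2 to 6 calls in KO against WT thymic Treg, with 6 without KO library 4, and 0 to 0 in CD4SP, rTreg and aTreg. It gave 16 to 21 and 19 to 26 in thymic Treg against CD4SP (WT, KO), 5 to 9 and 15 to 20 in rTreg against thymic Treg, 10 to 12 and 12 to 18 in aTreg against rTreg, and 0 to 1 in the difference of KO effects. The KO minus WT no-gene share ranged from -5.06 to -3.56 points in thymic Treg, -0.353 to 1.11 in CD4SP (negative without WT library 2), -0.0405 to 1.68 in rTreg (negative without WT library 2) and -1.58 to -0.56 in aTreg. Of 1107 values of single genes 1027 kept direction and call, 75 lost the call and 5 gained it, and 0 reversed.

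Outside the comparisons of WT thymic Treg with CD4SP and of KO rTreg with aTreg, not every same-numbered pair of libraries correlated over 0.1. The numbers were not taken as pairs there, and the main fit held no replicate block. Within a genotype 22 of 42 same-numbered pairs of libraries from different populations correlated over 0.1 (median 0.104), against 2 of 108 pairs with other numbers (median -0.0408). In 74 of 84 pairings of a library with another group the best match had its own number. This is a hint of pairing within a genotype, from the data only. Between genotypes the median was 0.0141, and 11 of 24 were best with their own number. With the replicate block the members called numbered 24 in thymic Treg against CD4SP in WT and 25 in KO, 11 and 22 in rTreg against thymic Treg, and 14 and 19 in aTreg against rTreg. The block ended 0 members' calls. Hnrnpa1, with 1881 counts over all libraries, rests on the least depth of the genes tested.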
